A study of Mus musculus with 8 samples.

Results

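The regions described here are the places in the mouse genome where Runx1 was found on DNA far from any protein-coding gene and outside chromatin marked with H3K27me3. Peaks of the 2 Runx1 libraries were merged where they shared at least 1 bp, and a merged region was kept where both libraries contributed a peak. Of 44027 such regions, 3821 (8.68%) lay more than 50 kb from every protein-coding gene span of RefSeq's GRCm38.p6 annotation and touched no H3K27me3 peak of either H3K27me3 library, and these are called far Runx1 regions below. The members were thus chosen by position and by the presence of a Runx1 peak in both libraries and of no H3K27me3 peak, so the number of far regions and their Runx1 values are descriptions and carry no test.

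All libraries came from EML_C1, a mouse haematopoietic progenitor line whose growth depends on stem cell factor, kept in medium with 20% serum and 200 ng/ml of that factor, and the labels give its strain as C57BL/6. The Runx1 libraries and the Ezh2 libraries, 2 of each, were fixed with 2 mM DSG for 60 min and then 1% formaldehyde for 60 min, the H3K27me3 libraries, also 2, with 1% formaldehyde for 10 min. None of these groups carried a treatment or a mutation, so the comparisons are between places in the genome and not between conditions. The peak lists hold no read totals and the depth of each library is unknown.

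Runx1 is a transcription factor that pairs with Cbfb to bind a short DNA motif, and it is needed for blood stem cells to form in the embryo and for the later maturation of lymphocytes and platelets. Many of its sites in blood cells are enhancers, stretches of DNA that act on a promoter over a distance. Ezh2 is the enzyme that places H3K27me3, a histone mark of silenced developmental genes.

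The only stretches of the far regions for which reference letters were at hand are those that touch a RefSeq start window, which runs from 250 bases before to 50 bases after the annotated start of a gene, here always a non-coding one. The far regions touched 108 such windows of 96 genes, through 97 regions. The windows below belong to the 5 strongest regions whose mean summit lay inside the window, and to Jpx, a non-coding RNA gene of the X-inactivation centre. Each is given 5′ to 3′ on the strand of its gene, with RefSeq sequence of GRCm38.p6, and capitals mark TGTGGT or TGCGGT, the core letters of the RUNX motif, or their reverse complements ACCACA and ACCGCA.
D130051D11Rik, chr15:85634346-85634645, plus strand: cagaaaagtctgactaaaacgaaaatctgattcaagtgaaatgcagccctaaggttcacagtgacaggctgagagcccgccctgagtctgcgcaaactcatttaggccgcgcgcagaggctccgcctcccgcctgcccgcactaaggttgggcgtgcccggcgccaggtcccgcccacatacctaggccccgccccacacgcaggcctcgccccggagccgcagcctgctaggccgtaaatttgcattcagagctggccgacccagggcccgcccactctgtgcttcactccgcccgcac
LOC115487176, chr9:61013180-61013479, plus strand: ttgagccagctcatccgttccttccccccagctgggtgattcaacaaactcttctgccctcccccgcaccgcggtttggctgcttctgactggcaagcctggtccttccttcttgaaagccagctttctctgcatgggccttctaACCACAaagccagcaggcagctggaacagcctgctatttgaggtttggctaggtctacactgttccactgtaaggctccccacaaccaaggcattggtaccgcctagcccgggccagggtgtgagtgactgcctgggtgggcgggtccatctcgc
Gm41331, chr15:60141576-60141875, plus strand: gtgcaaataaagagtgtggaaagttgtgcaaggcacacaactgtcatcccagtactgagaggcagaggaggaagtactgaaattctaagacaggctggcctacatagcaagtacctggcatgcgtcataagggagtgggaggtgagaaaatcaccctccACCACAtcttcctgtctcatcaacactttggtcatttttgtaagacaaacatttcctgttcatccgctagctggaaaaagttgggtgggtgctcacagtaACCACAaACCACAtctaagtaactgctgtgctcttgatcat
Gm10505, chr17:27342210-27342509, plus strand: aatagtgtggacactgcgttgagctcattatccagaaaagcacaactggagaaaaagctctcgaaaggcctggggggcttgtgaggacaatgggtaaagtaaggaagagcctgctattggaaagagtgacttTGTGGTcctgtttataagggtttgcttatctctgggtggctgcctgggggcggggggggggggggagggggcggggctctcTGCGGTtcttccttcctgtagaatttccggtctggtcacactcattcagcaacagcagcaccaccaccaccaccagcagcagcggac
Gm33078, chr11:57911859-57912158, plus strand: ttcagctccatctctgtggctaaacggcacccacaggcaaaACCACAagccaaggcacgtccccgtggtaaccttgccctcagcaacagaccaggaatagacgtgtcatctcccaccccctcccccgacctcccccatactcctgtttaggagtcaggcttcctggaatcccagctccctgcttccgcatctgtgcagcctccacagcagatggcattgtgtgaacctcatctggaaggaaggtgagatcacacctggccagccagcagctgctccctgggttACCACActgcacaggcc
Jpx, chrX:103493308-103493607, plus strand: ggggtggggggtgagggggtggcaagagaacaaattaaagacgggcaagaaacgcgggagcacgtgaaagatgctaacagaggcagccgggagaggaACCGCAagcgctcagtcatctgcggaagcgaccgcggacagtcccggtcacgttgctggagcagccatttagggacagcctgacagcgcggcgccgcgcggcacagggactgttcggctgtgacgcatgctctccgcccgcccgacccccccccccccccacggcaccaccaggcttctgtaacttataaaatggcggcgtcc

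The window of D130051D11Rik, which held no RUNX letters, lay under the strongest far region of all, with a fold of 169.9 in replicate 1 and 140.7 in replicate 2. Fold here is the authors' enrichment at the peak summit as the peak caller wrote it, and where several peaks fell in a region the highest was taken. The summit of that region lay 50 bases before the start of D130051D11Rik. The window of Gm41331 held 3 RUNX matches, and its region had folds of 48.6 and 58.1 with the summit 4.5 bases after the gene start. The window of LOC115487176 held 1 match under folds of 50.1 and 60.1, that of Gm10505 held 2 under 30.8 and 36.6, and that of Gm33078 held 2 under 27.8 and 30.6. At Jpx the summit lay 231 bases past the gene start, outside the window, with folds of 34.3 and 35.4.

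RUNX letters, searched on both strands, were present in 47 of the 108 touched windows (43.5%), against 22.4% of all 32817 RefSeq start windows. Among windows of non-coding genes that no Runx1 region touched the share was 23.1% of 10244, and among non-coding windows touched by other Runx1 regions it was 29.5% of 1235. Windows of protein-coding genes touched by Runx1 held RUNX letters in 22.9% of 8706 cases. The median GC content was 49.3% in the windows at far regions, 47.7% in the untouched non-coding windows, 61.7% in the other touched non-coding windows and 62.7% in the touched protein-coding windows, so the last 2 sets differ in base composition. GATA letters (AGATAA or TGATAA) were present in 37.0% of the windows at far regions, against 25% of untouched non-coding windows and 18.6% of all windows. In the GC-richer sets they were in 11.4% of the other touched non-coding windows and 8.28% of touched protein-coding windows. ETS letters (AGGAAG or CGGAAG) were present in 63.0% of the windows at far regions, against 55.1% of the other touched non-coding windows, 57.8% of touched protein-coding windows, 40.9% of untouched non-coding windows and 46.5% of all windows. The E-box CAGCTG was found in 24.1% of the windows at far regions, against 17.8% of untouched non-coding windows and 16.3% of all windows. The AP-1 letters TGANTCA were found in 15.7%, against 9.64% of untouched non-coding windows and 7.81% of all windows. These windows cover 97 of the 3821 far regions, several windows overlap one another, and a match is a description of letters and not of a bound site. The mean summit lay inside the window in 63 of the 109 pairs of window and region, so elsewhere the letters searched were not those under the summit.

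Far Runx1 regions were sparse but about as high as the rest. The space more than 50 kb from protein-coding genes made up 37.6% of the chromosome span between the outermost features, 1018 Mb, and held 3.75 unmarked Runx1 regions per Mb, against 21.7 per Mb in the other 1686 Mb. Density fell step by step with distance, and the space counted includes bases to which reads cannot be mapped. Unmarked regions touching a gene span numbered 25.4 per Mb, those 10 to 50 kb away 12.7 per Mb, those 50 to 100 kb away 7.37 per Mb, and those beyond 500 kb 1.08 per Mb. The median fold moved little over the same classes. It was 4.08 in replicate 1 and 5.33 in replicate 2 at 50 to 100 kb, and 3.99 and 5.33 beyond 500 kb.

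**Figure D1:**
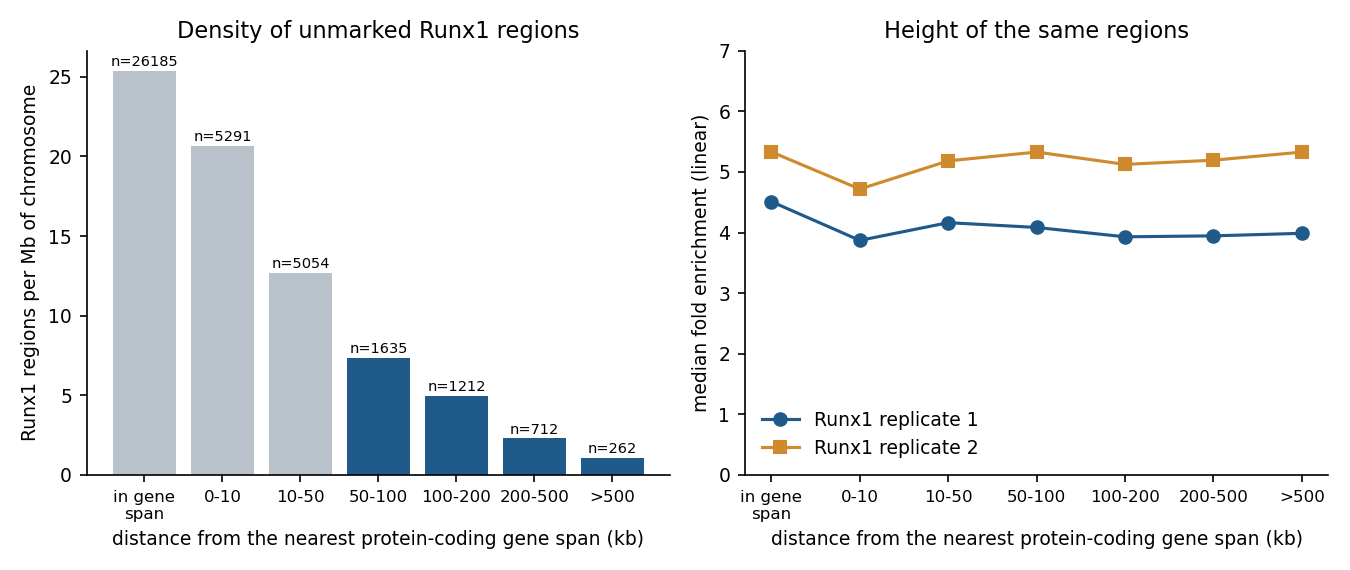
Left, number of H3K27me3-free Runx1 regions per Mb of chromosome (bars, n above each) by distance from the nearest protein-coding gene span in kb, with the far classes in blue; right, median fold enrichment of the same regions in Runx1 replicate 1 (circles) and replicate 2 (squares). Density falls to 1.08 per Mb beyond 500 kb, against 25.4 per Mb in gene spans, while the medians stay between 3.87 and 5.33.

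Over all far regions the median fold was 4.00 in replicate 1 and 5.19 in replicate 2, against 4.35 and 5.19 in the 36530 unmarked regions nearer to or inside genes. The regions inside gene spans had medians of 4.51 and 5.33, and those outside but within 50 kb 4.00 and 4.93, so the far regions stood level with other regions outside genes. The log2 ratio of the medians, far over nearer, was -0.061 on the mean of both libraries, and the difference was seen in replicate 1 and not in replicate 2. The upper tail was thinner than in the nearer set. A fold over 20 in both replicates was reached by 144 far regions (3.77%), against 6.77% of the nearer unmarked ones and 6.34% of all 44027. Among unmarked regions outside genes but within 50 kb it was 3.78%, level with the far regions. A fold over 40 in both was reached by 20 far regions (0.523%), against 733 (2.01%) of the nearer ones. It was reached by 0.841% of those outside genes but within 50 kb. The share with a q-value of at most 1e-05 in both replicates was 52.7% (2012 far regions), against 62.3% of the nearer ones and 60.5% of all. Outside genes but within 50 kb that share was 55.3%. The 432 regions that were as far from genes but touched H3K27me3 had medians of 3.41 and 3.79. Of these, 209 touched the mark in both H3K27me3 libraries, 184 in replicate 1 only and 39 in replicate 2 only.

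The 2 Runx1 libraries ranked the far regions similarly, though less closely than the nearer ones. Spearman's rho between their folds was 0.857, against 0.898 over the nearer unmarked regions and 0.871 over those outside genes but within 50 kb. Pearson's r of the log2 folds was 0.91 over 3821 regions, which share libraries and an input and are not independent replicates. The summits of both libraries lay a median of 24 bp apart, and at 2979 far regions (78.0%) they lay within 50 bp, against 78.8% of the nearer unmarked ones. Replicate 2 gave the higher fold at 3011 far regions (78.8%), against 67.2% of the nearer unmarked regions and 75.1% of those outside genes but within 50 kb. Nothing in the labels tells whether the libraries of a pair came from separate cultures, and their spread may be technical. Far regions had a median width of 382 bp, against 438 bp for the nearer ones and 398 bp for those outside genes but within 50 kb.

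**Figure D2:**
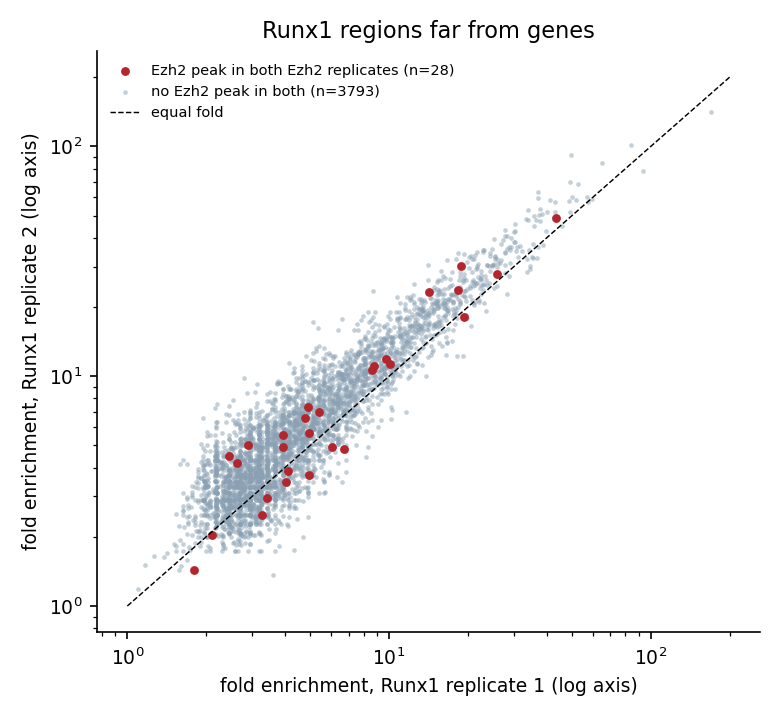
Fold enrichment of each far Runx1 region in Runx1 replicate 1 (horizontal, log axis) and replicate 2 (vertical, log axis), with regions touching an Ezh2 peak in both Ezh2 libraries in red and the line of equal fold dashed. Points follow the diagonal up to the region with folds of 169.9 and 140.7, most lie above it, and the 28 red points are spread through the range.

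Distance and the word far are tied to the gene set used. The median distance to the nearest protein-coding gene was 113 kb, 2186 far regions (57.2%) lay over 100 kb away, 262 over 500 kb and 63 over 1000 kb. The farthest, at 1845 kb, was chr18:27599157-27599783 between Celf4 and Pik3c3, with folds of 3.40 and 4.90. The 4 next had folds between 2.16 and 6.14, and lay between Igfbp7 and Adgrl3, between Nudt12 and Efna5 (a pair of them) and between Cdh6 and Cdh9. So the 5 farthest regions were all of low or middling height. At the line itself, the regions just inside had distances of 50.005 kb (Tfap2a, folds 3.77 and 2.36) and 50.055 kb (Galnt18, 1.96 and 2.88). The regions just outside had 49.98 kb (Dsg1c, 1.92 and 2.00) and 49.965 kb (Zfp217, 17.6 and 19.6).

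Against genes of every kind the picture differs, since 1144 far regions (29.9%) touched an annotated gene that is not protein-coding and 748 (19.6%) lay more than 50 kb from any annotated gene. Long non-coding RNA genes were touched by 937 far regions, in 521 genes, of which 203 held more than 1 region. Morrbid held 20, in the 428.7 kb between Bcl2l11 and Spdye4c. It is a long non-coding RNA known to repress its neighbour Bcl2l11, a gene that promotes cell death, in short-lived myeloid cells. Pvt1, the long non-coding RNA beside Myc, held 9, Lncpint held 10 and 2610307P16Rik held 19. A pseudogene was touched by 64 far regions and a segment of an antigen receptor locus by 79. No such shares over the other Runx1 regions are at hand, so these counts cannot be called high or low.

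Among the strongest 10 far regions the mean fold over the libraries ran from 155.3 down to 57.5, and each had its summits within 26 bp in the 2 libraries. The second, chr4:7755405-7755946, had folds of 84.3 and 101.6 and lay 763.8 kb from Tox, a DNA-binding protein needed for T-cell and innate lymphoid development. Car8, on its other side, was nearer, at 385.5 kb. A further one of the 10 lay in the same gap between Tox and Car8, 160.3 kb from Tox, with 49.1 and 70.1. The region chr15:68363037-68363890, 104.1 kb from Zfat, had 93.2 and 77.9, and chr1:38693926-38694762, 63.7 kb from Aff3, a nuclear protein of lymphoid cells, had 65.0 and 84.9.

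The most uneven of the 10 was chr1:137806571-137807338, 255.5 kb from Ptprc, which encodes the leukocyte surface phosphatase CD45, with 49.7 in replicate 1 and 91.9 in replicate 2. The region chr6:51760099-51760927 lay 98.2 kb from Skap2, an adaptor protein of myeloid cells, with 56.9 and 59.9. That near Nrp2 had 52.7 and 68.5, and that between Abca13 and Vwc2 had 59.4 and 59.1. The tenth, chr4:135069480-135070528, with 57.6 and 57.3, lay 50.1 kb from Runx3, a close relative of Runx1. None of the 10 touched an Ezh2 peak in both Ezh2 libraries, against 0.733% of all far regions, a share too small for 10 regions to differ from.

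Single and grouped far Runx1 regions were about equally many. Linked at gaps of at most 10 kb, 1900 of them (49.7%) had a far neighbour, in 708 groups, and 1921 had none, while 67.2% of the nearer unmarked regions, which lie at a higher density, were linked. Groups of 5 or more numbered 54 and held 333 regions. The median fold was 4.15 and 5.38 in linked regions, against 3.92 and 5.05 in single ones. The largest group was 12 regions over 58.2 kb between Syf2 and Runx3, at chr4:135012374-135070528, with folds of 2.73 to 57.6 in replicate 1 and 2.05 to 57.3 in replicate 2. A group of 10 spanned 20.0 kb between Max, the partner of Myc, and Fut8, with folds up to 13.7 and 14.8. Another group of 10 spanned 18.4 kb between Anxa3 and Bmp2k, with folds of 2.73 to 9.12 in replicate 1 and 2.05 to 16.7 in replicate 2. The third group of that size lay in the T-cell receptor beta locus, over 45.2 kb, with folds up to 5.58 and 9.67.

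Seen by the gap between neighbouring protein-coding genes, 1011 of the 2967 gaps over 100 kb (34.1%) held a far region, and 77 gaps with 10 or more held 1351 of the 3821 regions. The fullest were the immunoglobulin heavy chain locus (78 between Adam6a and Zfp386) and the T-cell receptor alpha and delta locus (44 between Gm36448 and Dad1). Next came Id2 to Rnf144a with 42, Bcl2l11 to Spdye4c with 33 and Runx1 to Setd4 with 33. The densest of the 12 fullest gaps was Max to Fut8, where 27 regions made 98.1 per Mb. At the other end, 93 of the 296 gaps over 1 Mb held none. The widest of these was the 3975 kb between Slc39a10 and Tmeff2.

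By chromosome, the autosomes held 4.26 far regions per Mb of far space, with the lowest density on chromosome 1 (2.74) and the highest on chromosome 13 (7.28). Chromosome X held 79 far regions, 1.01 per Mb. Its nearer unmarked regions were sparse too, at 7.00 per Mb, and chromosome Y held 15 far regions. The median fold of far regions on X, 4.16 and 5.12, stood among those of the autosomes.

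Genes with known roles in blood cells often bordered far Runx1 regions. A gene can border one only if the gap beside it exceeds 100 kb, which holds for 4744 protein-coding genes, of which 1855 (39.1%) had at least 1 far region in such a gap and 481 (10.1%) had 5 or more. Of 18 stem and progenitor genes on the list that border such a gap, 15 had a far region (83.3%) and 8 had 5 or more. Among the lymphoid genes it was 16 of 20 (80.0%), with 12 at 5 or more, and among the myeloid genes 8 of 9 (88.9%), with 4 at 5 or more. Of 45 developmental regulators of tissues other than blood, 18 had a far region (40%) and 1 had 5 or more.

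Gap length differed between the lists, with medians of 355.9 kb for the stem and progenitor, 700.7 kb for the lymphoid, 327.7 kb for the myeloid and 556.1 kb for the non-blood genes, against 244.9 kb over all 4744. With regions touching H3K27me3 kept, the non-blood count was 20 of 45 (44.4%), with 2 genes at 5 or more, against 43.0% over all genes. A far region counts for the genes on both sides of its gap. Irf8 on the myeloid list and Foxf1 on the non-blood list thus share regions, as do Pax1 and Foxa2, both on the non-blood list. The lists were written with earlier results of these data known, and their genes number few, so the counts describe these genes.

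**Figure D3:**
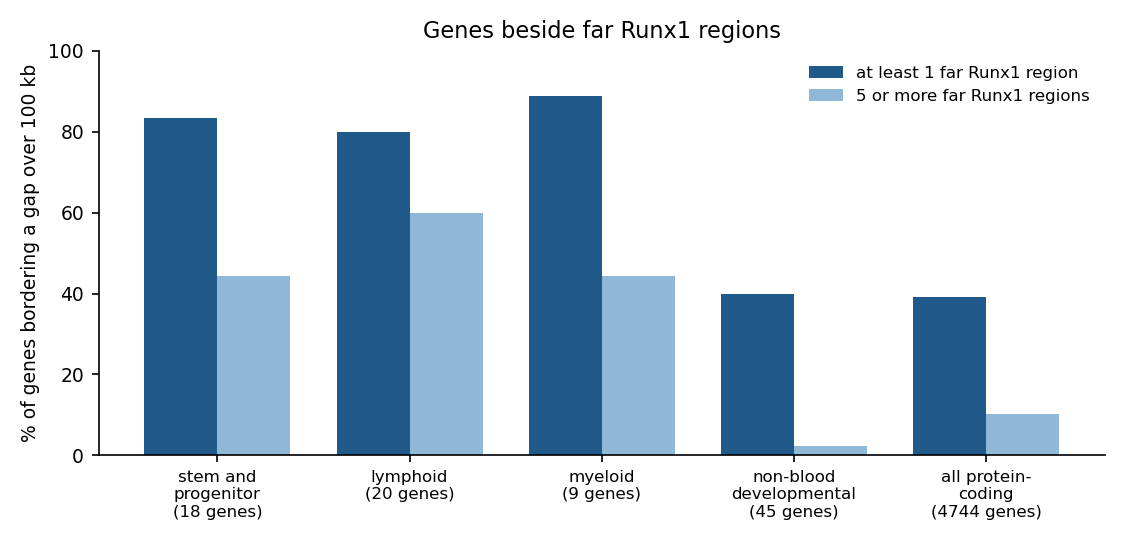
Percentage of genes bordering a gap over 100 kb that have at least 1 far Runx1 region (dark bars) or 5 or more (light bars) in the gap, for 4 gene lists and for all protein-coding genes. The 3 blood lists reach 80.0% to 88.9% for at least 1 region, against 39.1% over all genes, and the non-blood list stands at 40%.

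By the fold of the strongest region, the lymphoid genes were led by Tox, with 27 far regions in its gaps, and Runx3, with 12, and those strongest regions are given above. By number Id2 led. Id2, an inhibitor of E-proteins needed for innate lymphoid cells, had 42, the strongest at chr12:25430843-25431640, 334.8 kb away, with 38.4 and 50.7. Gata3, a T-cell factor, had 5, with 33.3 and 48.4 at the strongest, 168.3 kb away. Foxo1, a factor of lymphocyte survival and maturation, had 18, with 27.2 and 39.2 at 204.8 kb. Lymphoid genes with a wide enough gap but no far region included Bcl11b, Pax5 and Tcf12.

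Among the stem and progenitor genes, Sox4 had 27 far regions, with 35.7 and 50.0 at the strongest, 435.7 kb away. The gap is 797.3 kb long, so that region lay nearer to the gene on its other side. Hmga2, a chromatin protein of fetal stem cells, had 14, with 24.4 and 34.2 at 139.8 kb. Zfp36l2, an RNA-binding protein of blood progenitors, had 26, with 22.5 and 26.9 at 140.4 kb. Kit, the receptor for the stem cell factor on which the line depends, had 25, with 21.3 and 21.0 at the strongest, 108.9 kb away. Mecom, Cd34 and Msi2 had none. On the myeloid list Klf5 had 7, with 29.3 and 36.5 at 135.6 kb.

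The gap downstream of Myc, the growth regulator, held 28 far regions over 1786 kb up to Gsdmc, from 66.0 to 1714 kb past the Myc span. This gap is known as the home of a distal enhancer cluster that acts on Myc in mouse blood stem cells. In Pvt1, within 255 kb of Myc, lay 9 of them, and a further 9 were spread from 324.1 to 1427 kb. Beyond 1500 kb lay 10 regions, of which 4 had a fold over 10 in both libraries, against 3 of the 18 nearer ones. The strongest, chr15:63647746-63649099, lay 1657 kb away with 49.3 in replicate 1 and 51.9 in replicate 2. Its neighbours on either side, at 1626 and 1667 kb, had 7.99 and 11.96, and 20.9 and 24.6. The one at 1621 kb had 19.1 and 25.7. Nearer to Myc, the highest was at 168.4 kb, within Pvt1, with 14.1 and 26.2. Of the 28, none touched an Ezh2 peak in both Ezh2 libraries, but only 0.733% of all far regions did, so so few regions cannot show a difference. Together with 4 on its other side, Myc had 32 far regions.

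**Figure D4:**
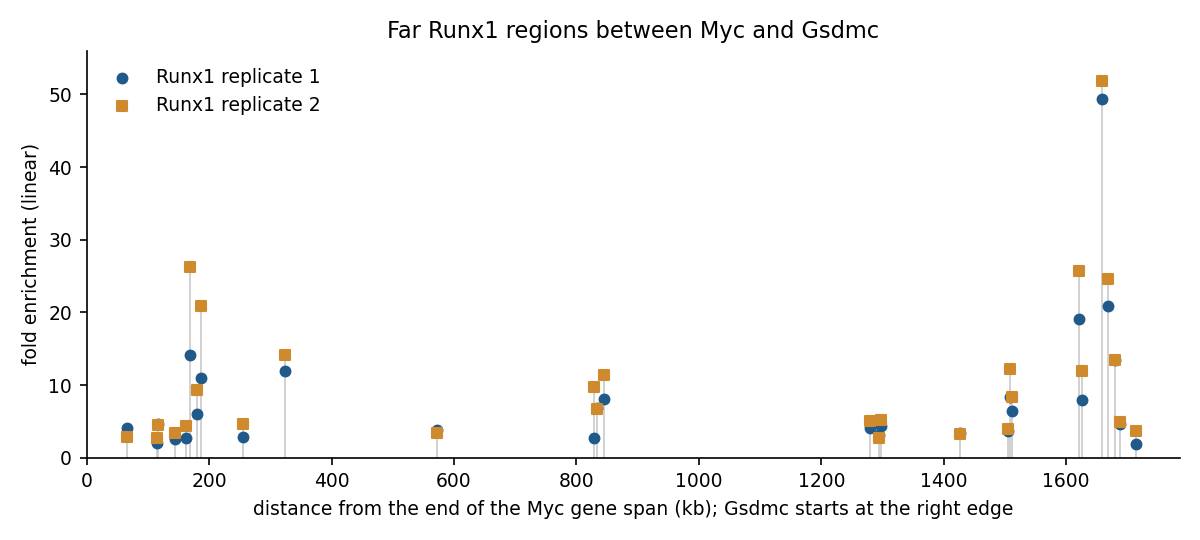
Fold enrichment (linear) of the 28 far Runx1 regions between Myc and Gsdmc against the distance of the summit from the end of the Myc span in kb, for Runx1 replicate 1 (circles) and replicate 2 (squares). The highest folds, 49.3 and 51.9, lie at 1658 kb, and a second set with folds up to 14.1 and 26.2 lies within 200 kb of Myc.

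The genes of the Runx family themselves bordered far regions. Runx1 had 33 in the 757.4 kb between it and Setd4, with folds from 1.60 to 37.2 in replicate 1 and from 1.49 to 50.4 in replicate 2. The strongest, chr16:93123403-93124139, lay 297.3 kb from Runx1, and its summits coincided in the 2 libraries. Runx2, the family member best known from bone, had 6 far regions, the strongest with 46.0 and 44.9 at 62.6 kb. Runx3 had the group of 12 described above. Cbfb, the shared partner subunit, had none.

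Antigen receptor loci, where V, D and J segments are joined during lymphocyte development, held 151 far regions (3.95% of all far regions). RefSeq lists their segments apart from protein-coding genes, so most of their length counts as space far from genes. Protein-coding genes in or beside a locus still take out part of it: of 31 Runx1 regions in the T-cell receptor beta locus, none with the mark, 19 were far, and of its 35 V segments 12 were touched by any Runx1 region. The immunoglobulin heavy chain locus, Igh, held 81 far regions (29.4 per Mb), the T-cell receptor alpha and delta locus 44 (24.5 per Mb) and the T-cell receptor beta locus 19 (28.5 per Mb). The immunoglobulin kappa locus, with 162 V segments, held 6 (1.89 per Mb), the T-cell receptor gamma locus 1 and the lambda locus none. Of the 527 V segments of all 6 loci, 73 (13.9%) were touched by a far region. In Igh it was 55 of 184 (29.9%), in the alpha and delta locus 11 of 136 (8.09%), in the beta locus 7 of 35 (20.0%) and in kappa 0 of 162.

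Within Igh the segments touched by far regions belonged to few families. The locus held 90 Runx1 regions, of which 81 were far and 7 touched H3K27me3, and 62 V segments were touched by any Runx1 region. The counts here are for far regions only. Of 92 Ighv1 segments 42 were touched (45.7%) and of 16 Ighv8 segments 10 (62.5%), while of 21 Ighv5 segments and 11 Ighv2 segments none was touched by a far region. Among segments listed as V segments 48 of 121 were touched (39.7%), and among V pseudogenes 7 of 63 (11.1%). The highest folds at touched segments were 24.1 and 30.2 at Ighv1-59 (chr12:115334862-115335432), and 21.1 and 32.3 at Ighv1-84 (chr12:115980482-115980970). The 55 regions touching a V segment had a median fold of 6.33 in replicate 1 and 8.82 in replicate 2, with ranges of 2.17 to 24.1 and 2.32 to 32.3.

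At the 55 of 81 far regions in Igh that touched a V segment, the mean Runx1 summit lay at or near one end of the segment. The gene table used gives no strand, and the orientation here is textbook background: mouse Igh is read on the minus strand, so the low-coordinate end of a V segment is its 3′ end, beside which lies the recombination signal where the RAG enzymes cut. Of the 55 regions, 44 (80.0%) had the mean summit within 50 bp of that end. All 42 regions at Ighv1 segments did, from 36 bp inside the segment to 26 bp past its end with a median of -0.75 bp, in segments of a median length of 294 bp. The 10 at Ighv8 segments lay 55 to 136.5 bp past the end, with a median of 107.5 bp. In the alpha and delta locus, where V segments are mostly read on the plus strand, 7 of 14 summits lay within 50 bp of the high-coordinate end. In the beta locus none of 8 lay within 50 bp of that end and 6 lay within 200 bp. Segments of 1 family share sequence, the handling of reads that map to several places is not given in the sources used here, and the counts are therefore uncertain for single segments.

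**Figure D5:**
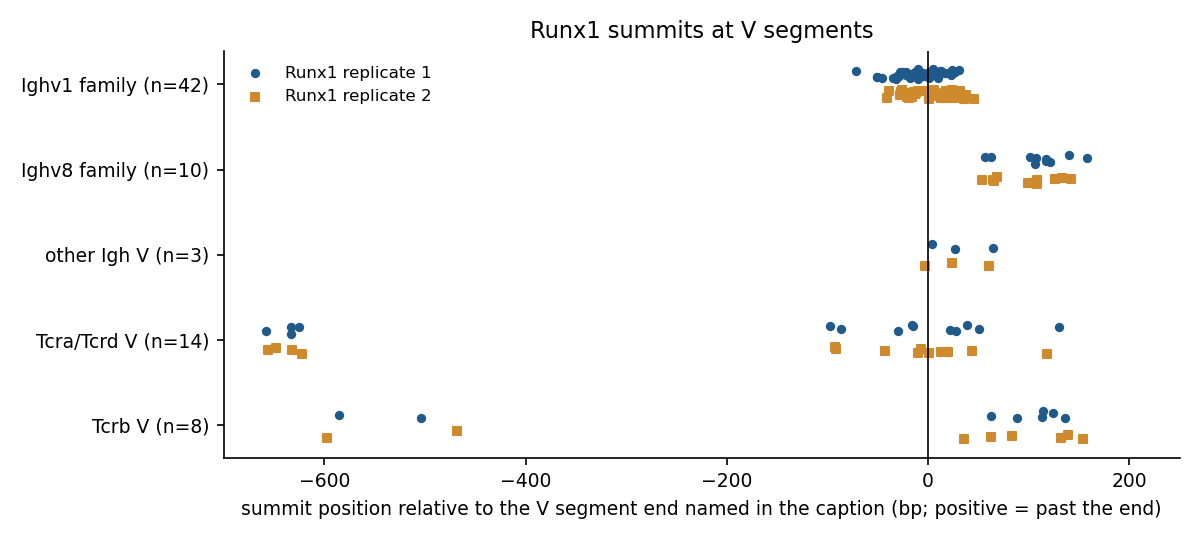
Position of the Runx1 summit relative to the end of the V segment it touches, in bp, for replicate 1 (circles) and replicate 2 (squares), with small vertical offsets for visibility; 0 is the low-coordinate end in Igh and the high-coordinate end in the other loci, and positive values lie past the end. The 42 Ighv1 summits cluster at 0, and the 10 Ighv8 summits lie 55 to 136.5 bp past the end on the mean of both replicates.

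Of 1005 microRNA genes in RefSeq, 33 lay within 20 kb of a far Runx1 region. No such share over other genes is at hand, so the count cannot be called high or low. Neighbouring microRNA genes can share a region, so the 33 are not separate cases. Mature forms of 5 of them are given below, 5′ to 3′, from RefSeq for GRCm38.p6, with the seed, bases 2 to 8, in capitals, since the seed sets which messages a microRNA pairs with.
mmu-miR-29a-3p: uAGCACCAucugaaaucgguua
mmu-miR-29b-3p: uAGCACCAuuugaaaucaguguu
mmu-miR-146a-5p: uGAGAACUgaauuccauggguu
mmu-miR-221-3p: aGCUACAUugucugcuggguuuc
mmu-miR-222-3p: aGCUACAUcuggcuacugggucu

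Mir29a and Mir29b-1, which share the seed AGCACCA, lie together on chromosome 6 between Klf14 and Mkln1. They had 5 far regions within 20 kb, the strongest with 14.9 and 16.9 at 8.91 kb from Mir29a. Mir146, whose miR-146a-5p dampens inflammatory signalling, had 1, with 22.4 and 27.7 at 15.2 kb. Mir221 and Mir222, which share the seed GCUACAU and are known to target Kit, had 2 within 20 kb, the stronger with 6.86 and 12.5. The microRNA cluster of Mir17, Mir18, Mir19a, Mir20a, Mir19b-1 and Mir92-1, also active in blood cells, had 1 far region within 20 kb, a weak one with 2.67 and 2.14 at 1.94 kb from Mir17. All these microRNAs were chosen after the distances and folds were seen.

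Few far Runx1 regions touched Ezh2 peaks. An Ezh2 peak in both Ezh2 libraries was touched by 28 of the 3821 (0.733%), against 1.07% of the nearer unmarked regions and 3.97% of all 44027 Runx1 regions. Among unmarked regions outside genes but within 50 kb it was 0.851%, close to the share of the far regions. The direction turned with the library: in Ezh2 replicate 1 alone 2.09% of far regions touched a peak, against 2.76% of the nearer unmarked ones, and in Ezh2 replicate 2 alone 2.17%, against 1.75%. For unmarked regions outside genes but within 50 kb the shares were 2.50% in Ezh2 replicate 1 and 2.02% in Ezh2 replicate 2. Among the 432 equally distant regions that touched H3K27me3 an Ezh2 peak in both libraries was touched by 87 (20.1%). Since Ezh2 places that mark, the rule that left out marked regions also left out many Ezh2 sites, and the Ezh2 and Runx1 libraries share an input. At the 28 the Ezh2 fold had a median of 2.65 in Ezh2 replicate 1 and 2.50 in Ezh2 replicate 2.

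The strongest of the 28 by Runx1 was chr13:58471450-58472362 between Rmi1 and Slc28a3, with Runx1 folds of 43.2 and 48.8 and Ezh2 folds of 9.16 and 6.08. The next, chr4:9066375-9066980 between Chd7 and Clvs1, had Runx1 folds of 25.9 and 27.9 and Ezh2 folds of 1.86 and 1.54. At chr7:132402372-132403078, between Chst15 and Oat, the Runx1 folds were 18.9 and 30.2 and the Ezh2 folds 2.37 and 2.51. The first of these thus stood above the other two in both factors. A few of the 28 joined a low Runx1 fold to a very small q-value, as at chr3:5860403-5860812, with Runx1 folds of 3.26 and 2.48 and −log10 q of 266.5 and 148.0. Another lay over the ribosomal RNA copy Rn18s-rs5, with Runx1 folds of 1.79 and 1.44 and −log10 q of 71.5 and 24.1. Both were picked after their values were seen.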

How the data were processed

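Chromatin immunoprecipitation and sequencing gave 8 libraries of EML_C1 cells, of which 6 peak lists were used: 2 each for Runx1, Ezh2 and H3K27me3. The 2 input libraries were not analysed here. Per the submitters' processing notes the tools included MACS2 2.0.10, Bowtie2 2.2.1, SAMtools and Picard, on build mm10, with settings not given in the sources used here. Each list is of 1 library. The authors deposited for each peak a score, a fold enrichment, a −log10 p-value and a −log10 q-value, and for Runx1 and Ezh2 a summit position. The weakest Runx1 peaks had p-values of 0.0495 and 0.0498, so the lists are permissive. The Runx1 lists hold 64059 and 66153 peaks, of which 38415 and 45870 have a q-value of at most 0.01. The Ezh2 lists hold 178354 and 159007 peaks, of which 35955 and 22471 reach that q-value. The H3K27me3 lists hold 220455 and 178423 peaks, of which only 13508 and 2384 reach it. The rule on the mark and the Ezh2 overlaps thus rest mostly on weak peaks.

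Peaks sharing at least 1 bp were merged, and distances were taken to the 21887 protein-coding gene spans of RefSeq's GRCm38.p6 table, the assembly that mm10 names, with Python 3.11.15, pandas 2.3.3 and numpy 2.4.6. The merging and distance steps were tested on simulated data. No chance test was built, since the members were chosen by the same lists, so values are set beside those of other Runx1 regions. Members and gene lists were chosen with earlier results of these data known. Named regions are the 10 strongest and 5 farthest, the largest groups (one more of equal size is named), the 3 strongest with Ezh2, those at the line, and the strongest beside the 12 listed blood genes with the highest folds. The motif search planned around every summit was not run, and RefSeq start windows were read instead. Alternatives covered the q-value, the overlap, the distance, the gene set, the mark and each replicate.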

Additional observations from a re-analysis of the deposited data

How the results depend on the processing

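The number of far regions, 3821, became 2013 with Runx1 q-values of at most 1e-05, 5967 at 25 kb, 2186 at 100 kb and 748 when genes of any kind set the distance, and ran from 3821 to 6662 when each library was left out, the highest without Runx1 replicate 1. The log2 ratio of median folds, far over nearer, was -0.061 and turned to 0.062 at q-values of at most 1e-05, and ran from -0.28 to -0.061 over left-out libraries, so its sign depends on the threshold. The share with Ezh2, 0.733%, was 1.09% at q-values of at most 1e-05, 0.640% at 100 kb, 0.802% with genes of any kind and 2.70% with marked regions kept, and ran from 0.533% to 2.17% over left-out libraries. It was 1.35% without H3K27me3 replicate 1, 2.17% without Ezh2 replicate 1, against 1.75% of nearer regions, and 2.09% without Ezh2 replicate 2, against 2.76%. The share of linked regions, 49.7%, was 42.0% with all lists at a q-value of at most 0.01, 37.2% at 1e-05, 32.8% with genes of any kind and 67.0% with links of up to 25 kb. Blood genes beside far regions, 39 of 47, were 36 at Runx1 q-values of at most 1e-05 and 28 at 100 kb. They fell to 4 with genes of any kind. The share over all genes at these settings is not at hand. The 81 regions in Igh became 0 with genes of any kind, since the segments then count as genes. Igh ran from 81 to 114 over left-out libraries. RUNX letters, 43.5% of windows, were in 47.9% at a q-value of at most 0.01 and 39.0% at 25 kb, and in 42.9% to 46.7% over left-out libraries. Igh summits within 50 bp of the segment end ran from 73.7% to 80.7% over left-out libraries. Alternatives for the last 4 kinds of result were added after seeing the data, and those for motifs around summits were not run. With genes of any kind no start window and no Igh segment was left. No paired analysis was possible because none of the results comes from a test between groups. Depth is unknown, so weak peaks cannot be told apart from background by depth, and a region found in 1 library only is not shown to be absent from the other.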
